A study of Mus musculus with 6 samples.

Results

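The Notch receptors, their ligands, a fringe glycosyltransferase and the target genes of the pathway were followed in mouse jejunum enteroids that over-expressed PLAGL2, a zinc finger transcription factor. The 10 genes, Notch1, Notch2, Notch3, Dll1, Dll4, Jag1, Jag2, Lfng, Hes1 and Hey1, were taken by gene symbol out of 40769 genes in a table with 1 value per gene and library. Enteroids are epithelial cultures grown from intestinal crypts in Matrigel. All lines came from C57BL/6 mice and grew in serum-free ENR medium, and polyadenylated RNA was sequenced. PLAGL2 clone 3 carried a piggyBac transposon for constitutive PLAGL2 and is labelled as high in PLAGL2, PLAGL2 clone 1 carried the same and is labelled as low, and a GFP line carried a piggyBac transposon for constitutive GFP. Each of the 3 lines gave 1 library at passage 7 and 1 at passage 5, for 6 libraries in all. The libraries of a line come from 1 transfected culture at different passages, so no p-value here reflects variation among independent transfections. For a single clone, the main p-values rest on how far the passages of a line differ. For both clones against GFP, the gap between the clones adds to that variation. For passage, with line as a term, they rest on how unevenly the lines changed.

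In Notch signalling, a Delta-like or Jagged ligand on one cell binds a Notch receptor on its neighbour, the receptor is cleaved within the membrane, and its intracellular part joins the DNA-binding protein RBPJ in the nucleus to switch on repressors of the Hes and Hey families. Fringe enzymes such as Lfng add sugars to the receptor and shift its preference between Delta-like and Jagged ligands. In intestinal crypts the pathway keeps stem and progenitor cells and holds back the secretory fate, in part through repression of Atoh1 by Hes1, and Dll1 and Dll4 are the ligands known to act there.

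Depth and identity of the libraries were as follows. Read numbers were recovered from the steps of the deposited values, with totals between 13779306 and 17319950 reads per library. Plagl2 itself, which the labels give as introduced, stood at 37.2 and 37.2 RPKM (read density scaled by gene length and library depth) in clone 3 at passages 7 and 5, at 26.5 and 30.9 RPKM in clone 1, and at 23.1 and 22.8 RPKM in GFP. All 4 PLAGL2 libraries exceeded GFP, with a log2 change of 0.50 (SE 0.15, limma-trend adjusted p = 0.655). Reads of the introduced and the endogenous copy are not separated in these values. The summed RPKM of 7 epithelial markers was 2718 to 2985, while that of 6 endothelial markers was 0.206 to 0.340, that of 7 mesenchymal and pericyte markers 1.36 to 2.17 and that of 6 immune markers 0.758 to 1.92. In bulk RNA, fewer cells of a type and less RNA per cell cannot be told apart.

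The promoters of the genes on which the results below turn are shown first. A window of 250 bases before the start of transcription was taken from RefSeq (GRCm38.p6). It held 9 entries for 8 of the 10 genes and none for Hes1 or Hey1. Annotated exons covered all 250 bases for Jag2 and for both Dll1 entries, 124 for Jag1 and 0 to 31 for the others. The windows of Jag2 and Notch1 lie inside the annotated span of these genes. The Jag2 bases are therefore exon sequence by that annotation. The motifs searched, on both strands, were TGGGAA, the core that RBPJ reads, GGGGCC, a part of the site of the PLAG family to which PLAGL2 belongs, and CACGNG, a site of the HES and HEY repressors. Over 32851 promoters of this length, 21.6% held TGGGAA, 22% held GGGGCC and 23.5% held CACGNG. A match is a description of letters and not a site of binding. The windows of Notch1 (chr2:26503823-26504072, minus strand) and of Lfng (chr5:140607091-140607340, plus strand) read 5′ to 3′ as follows. For Jag2, 28 bases out of its window (within chr12:112929496-112929745, minus strand) follow them. Capitals mark GGGGCC on either strand in Notch1 and Jag2 and TGGGAA on either strand in Lfng.
Notch1: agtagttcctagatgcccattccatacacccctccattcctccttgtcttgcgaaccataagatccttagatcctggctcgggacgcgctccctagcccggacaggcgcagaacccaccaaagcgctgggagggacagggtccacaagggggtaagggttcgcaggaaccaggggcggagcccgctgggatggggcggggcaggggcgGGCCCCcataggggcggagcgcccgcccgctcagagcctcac
Lfng: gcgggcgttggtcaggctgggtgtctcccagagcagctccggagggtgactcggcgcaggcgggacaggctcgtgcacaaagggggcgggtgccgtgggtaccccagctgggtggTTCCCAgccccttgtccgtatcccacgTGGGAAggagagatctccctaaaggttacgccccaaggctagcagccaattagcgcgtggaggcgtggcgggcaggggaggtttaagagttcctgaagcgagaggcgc
Jag2: ggcggcggcggcGGGGCCgcgggcgggg
Lfng was the only one of the 9 entries with TGGGAA, which it held 2 times, and the match nearer to the start overlapped a CACGNG match. GGGGCC occurred 1 time each in Notch1, Notch3, Dll4 and Jag2. CACGNG was found in 7 of the 9 entries and was missing from Notch1 and Jag2. The 9 entries had a GC content of 56.0% to 87.2%, against a median of 52.4% over all promoters.

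The transcript level of the 10 genes spanned a wide range. Hes1 had the highest mean, 44.5 ± 5.71 RPKM (SD, n = 6), followed by Dll1 at 18.0 ± 1.57 RPKM, Lfng at 12.5 ± 2.57 RPKM, Notch1 at 12.4 ± 3.55 RPKM, Notch2 at 8.54 ± 1.47 RPKM, Jag1 at 6.83 ± 1.15 RPKM, Jag2 at 5.67 ± 1.86 RPKM and Dll4 at 3.83 ± 0.747 RPKM. Notch3 and Hey1 came last. Hes1 stood above Dll1 and Dll1 above Lfng with no overlap between libraries, and so did Dll4 above Notch3. The neighbours in between overlapped. Lfng exceeded Notch1 in 3 of 6 libraries, Jag1 exceeded Jag2 in 4, Notch2 exceeded Jag1 and Jag2 exceeded Dll4 in 5, whereas Notch1 exceeded Notch2 in 6 of 6 libraries although their ranges overlapped.

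**Figure D1:**
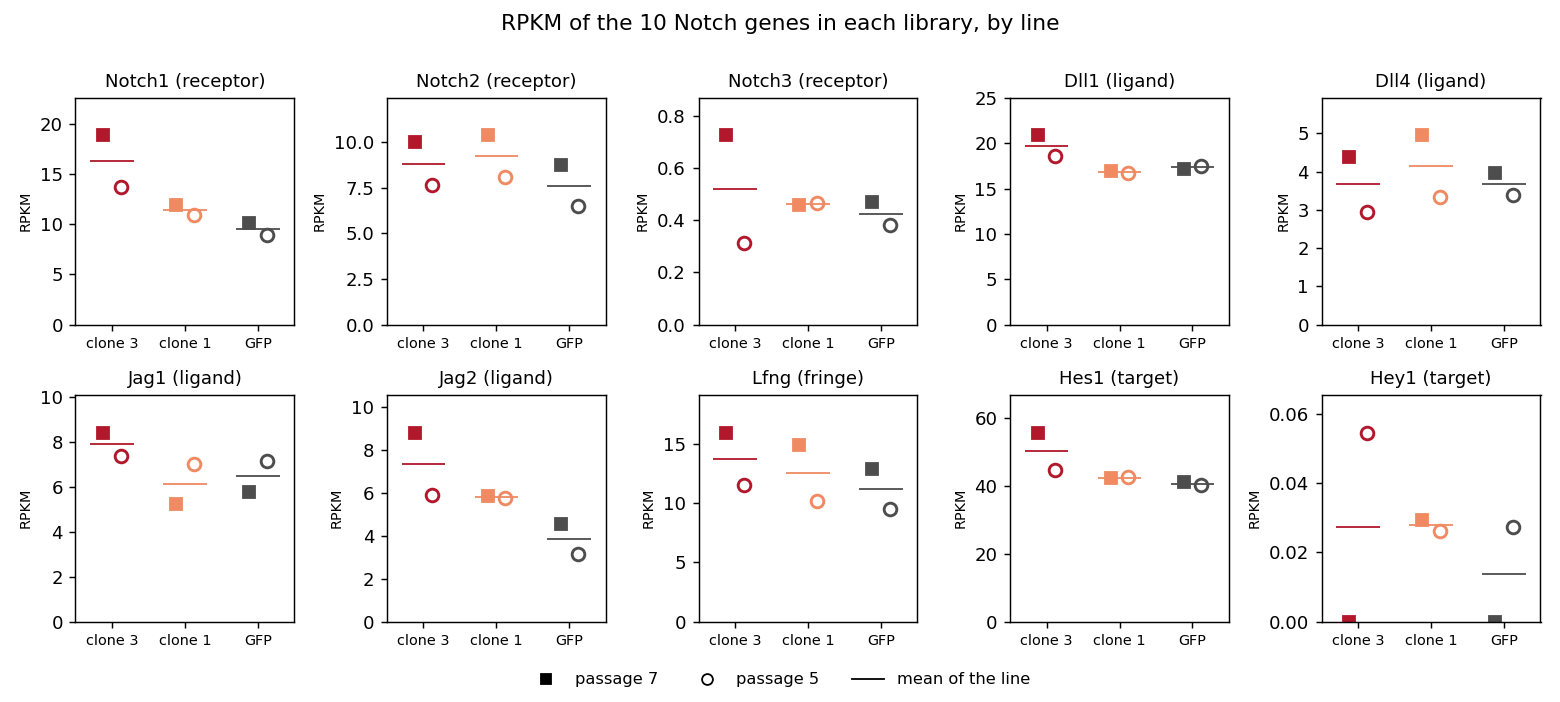
RPKM of each gene (vertical axis, its own scale for each gene, from 0) in PLAGL2 clone 3, PLAGL2 clone 1 and the GFP line, with filled squares for passage 7, open circles for passage 5 and a line at the mean of both. Notch1, Jag2 and Hes1 lay above both GFP libraries in all 4 PLAGL2 libraries, and Lfng and Notch2 lay higher at passage 7 than at passage 5 in each line.

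PLAGL2 over-expression was compared with GFP in a limma-trend fit of log2(RPKM + 0.5) over the 16314 genes that reached 0.5 RPKM in 2 or more libraries, with Benjamini-Hochberg adjustment and a threshold of 0.05. The fit included 8 of the 10 genes, and each of the 8 exceeded 0.5 RPKM in all 6 libraries. None of the 8 passed the threshold, in a comparison where 1 gene of 16314 did, or 0.00613%. At an unadjusted p under 0.05, limma-trend had 1 of the 8, Jag2, and 970 of all genes (5.95%), and a limma-voom fit of the recovered reads also had none past the threshold. The 4 libraries of both PLAGL2 clones all exceeded both GFP libraries for 3 of the 8 genes, Notch1, Jag2 and Hes1, against a background of 1298 genes, or 7.96%. No member lay below both GFP libraries in all 4, against 1076 genes or 6.6%. All 8 fitted changes were positive, with a median of 0.20 on the log2 scale, while 52.2% of all tested genes had a positive change and their median was 0.0074. Without clone 3 at passage 7, 7 of the 8 were positive with a median of 0.10, against 48% of all genes. In clone 3 alone 7 were positive with a median of 0.28 (52.8% of all genes), and in clone 1 alone 6 with 0.14 (51.7%). The genes were chosen with earlier results of these data known.

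Among the receptors, Notch1 (chromosome 2, 26457903 to 26516663, minus strand, mm10), the main receptor of crypt progenitors together with Notch2, had 18.8 and 13.7 RPKM in clone 3 at passages 7 and 5. It had 11.9 and 10.9 RPKM in clone 1, against 10.1 and 8.90 RPKM in GFP. The order of the lines was clone 3, clone 1, GFP without overlap, and passage 7 was the higher one in each line. These values rested on 2608 to 4040 reads in PLAGL2 libraries and on 1982 and 2102 reads in GFP libraries. Notch1 averaged 13.8 ± 3.53 RPKM with PLAGL2 (SD, n = 4) and 9.50 ± 0.857 RPKM with GFP (SD, n = 2), a log2 change of 0.49 (SE 0.21, limma-trend adjusted p = 0.842). In clone 3 alone the log2 change was 0.73 (SE 0.17, limma-trend adjusted p = 0.239), in clone 1 it was 0.25 (SE 0.17, adjusted p = 1.00), and clone 3 exceeded clone 1 by 0.48 (SE 0.17, adjusted p = 0.874). No member passed in these comparisons either, in which 57 genes (0.349%), 5 genes (0.0306%) and 4 genes (0.0245%) did. At an unadjusted limma p under 0.05, Notch1 and Jag2 passed in clone 3 against GFP, no member in clone 1 and Notch1 between the clones, where 9.04%, 3.95% and 5.13% of all genes did. With passage as a block in the limma-trend fit, which raised the genes called in clone 3 against GFP to 342 (2.1%), Notch1 reached an adjusted p of 0.0527 there. At an unadjusted p under 0.05 the blocked fit had 6 of the 8 members there, and 1810 genes higher and 1367 lower of 16314. It had 2 members in clone 1, where 848 genes were higher and 713 lower. Between the clones it had 2 members, with 1027 genes higher and 893 lower.

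Notch2 (chromosome 3, 98013527 to 98150361, plus strand) had 10.01 and 7.62 RPKM in clone 3 at passages 7 and 5, 10.3 and 8.06 RPKM in clone 1, and 8.72 and 6.48 RPKM in GFP. At each passage both clones exceeded GFP, but both clones at passage 5 lay below GFP at passage 7, so the groups overlapped. Its log2 change with PLAGL2 was 0.23 (SE 0.17, limma-trend adjusted p = 0.976), and it was 0.43 without GFP at passage 7 and 0.033 without GFP at passage 5. These fits had no passage term, so leaving out a GFP library set clones at both passages against GFP at a single passage. Notch3 (chromosome 17, 32120820 to 32166852, minus strand), a receptor best known from vascular smooth muscle and pericytes, had 0.726 and 0.313 RPKM in clone 3, 0.459 and 0.467 RPKM in clone 1, and 0.469 and 0.382 RPKM in GFP. It exceeded 0.5 RPKM in 1 library, clone 3 at passage 7, and so was not tested. The levels rested on 42 to 88 reads in PLAGL2 libraries and on 51 and 52 reads in GFP libraries, and clone 3 held both the highest and the lowest value.

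Whether reads were counted by strand is not given in the sources used. Exons of Notch1 overlap those of 0610009E02Rik and Gm13568 on the other strand, exons of Dll1 those of A930024N18Rik, exons of Dll4 those of Gm14207 and exons of Notch3 those of Gm17276, so reads of these genes cannot be told apart from antisense reads where they overlap. Exons of Notch2 overlap Gm42820 on the same strand. No such overlap was annotated for Jag1, Jag2, Lfng, Hes1 or Hey1.

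Of the Delta-like ligands, Dll1 (chromosome 17, 15367354 to 15376872, minus strand), carried by secretory progenitors, was the most abundant ligand. It had 20.9 and 18.6 RPKM in clone 3 at passages 7 and 5, 16.9 and 16.8 RPKM in clone 1, and 17.2 and 17.5 RPKM in GFP. Both clone 3 libraries lay above GFP and both clone 1 libraries below it. The log2 change with PLAGL2 was 0.07 with a 95% confidence interval of -0.18 to 0.32 (limma-trend adjusted p = 1.00). Dll4 (chromosome 2, 119325784 to 119335962, plus strand), which acts with Dll1 in crypts, had 4.39 and 2.94 RPKM in clone 3, 4.95 and 3.34 RPKM in clone 1, and 3.96 and 3.39 RPKM in GFP. The GFP values lay inside the range of each clone. Its log2 change with PLAGL2 was 0.06 with a 95% confidence interval of -0.44 to 0.56 (limma-trend adjusted p = 1.00).

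Of the Jagged ligands, Jag2 (chromosome 12, 112907819 to 112929776, minus strand) had the largest fitted change with PLAGL2 of the 8 tested genes. It had 8.79 and 5.89 RPKM in clone 3 at passages 7 and 5 and 5.85 and 5.77 RPKM in clone 1, against 4.56 and 3.16 RPKM in GFP. All 4 PLAGL2 libraries exceeded both GFP libraries, and 3 of them were nearly level with each other while clone 3 at passage 7 stood apart. Jag2 averaged 6.57 ± 1.48 RPKM with PLAGL2 (SD, n = 4) and 3.86 ± 0.990 RPKM with GFP (SD, n = 2), from 366 to 537 reads and from 213 and 255 reads. The log2 change was 0.69 (SE 0.21, 95% confidence interval 0.18 to 1.21), with a limma-trend adjusted p of 0.695. Without clone 3 at passage 7 it was 0.56 (limma-trend adjusted p = 0.783). It was 0.84 (SE 0.24, limma-trend adjusted p = 0.337) in clone 3 and 0.55 (SE 0.24, limma-trend adjusted p = 1.00) in clone 1, and clone 3 differed from clone 1 by 0.29 (SE 0.24, limma-trend adjusted p = 1.00). That difference shrank to 0.019 when clone 3 at passage 7 was left out, and it was 0.56 when the passage 5 library of that clone was. Jag1 (chromosome 2, 137081456 to 137116644, minus strand) had 8.40 and 7.38 RPKM in clone 3, 5.24 and 7.03 RPKM in clone 1, and 5.75 and 7.15 RPKM in GFP. Both clone 3 libraries lay above both GFP libraries, while clone 1 lay just below GFP at each passage. The log2 change with PLAGL2 was 0.10 (SE 0.19, limma-trend adjusted p = 1.00).

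Lfng (chromosome 5, 140607320 to 140615545, plus strand), the fringe enzyme, had 15.9 and 11.5 RPKM in clone 3 at passages 7 and 5, 14.9 and 10.2 RPKM in clone 1, and 12.8 and 9.47 RPKM in GFP. At each passage both clones exceeded GFP, but the passages of a line were farther apart than the lines. Its log2 change with PLAGL2 was 0.22 (SE 0.21, limma-trend adjusted p = 0.999), and it was 0.43 without GFP at passage 7 and 0.0088 without GFP at passage 5. As for Notch2, these fits had no passage term, and leaving out a GFP library left GFP at a single passage.

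Of the targets, Hes1 (chromosome 16, 30064384 to 30067796, plus strand), the repressor that reads out Notch activity in crypts, had 55.7 and 44.7 RPKM in clone 3 at passages 7 and 5. It had 42.2 and 42.8 RPKM in clone 1, against 41.3 and 40.2 RPKM in GFP. All PLAGL2 libraries exceeded GFP, clone 1 by a narrow margin, and clone 3 at passage 7 was the highest. The log2 change was 0.18 (SE 0.12, limma-trend adjusted p = 0.975) for both clones, 0.29 (SE 0.12, adjusted p = 0.572) for clone 3 and 0.06 (SE 0.12, adjusted p = 1.00) for clone 1. Hey1 (chromosome 3, 8663359 to 8667256, minus strand), a target gene best known from endothelium, had 0 and 2 reads in clone 3, 1 and 1 in clone 1, and 0 and 1 in GFP. These are the fewest whole reads that its values allow, since its length was fitted to them. On that count every library was below the 3 reads that a count of 0 allows, which correspond to 0.0794 to 0.0998 RPKM of Hey1, and no difference was detectable at this depth.

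**Figure D2:**
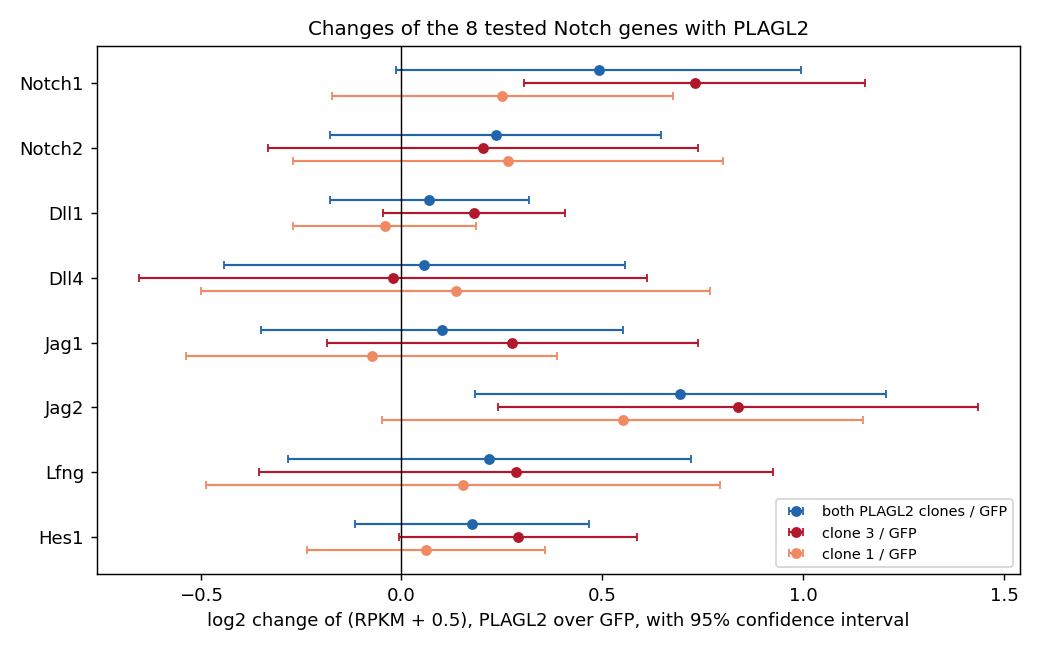
Log2 change of (RPKM + 0.5), PLAGL2 over GFP, with 95% confidence intervals from limma-trend (horizontal axis), for the 8 tested genes and for both clones together, clone 3 and clone 1. The points for Jag2 at 0.69, 0.84 and 0.55 lie farthest to the right in each comparison, followed for both clones together and for clone 3 by those for Notch1 at 0.49 and 0.73 and for clone 1 by Notch2 at 0.26, and none of the 8 genes passed the threshold after adjustment over 16314 genes.

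Markers of several cell types differed between the lines. The summed RPKM of 7 goblet cell markers was 925 to 1022 in clone 3 and 1630 to 1744 in clone 1, against 2119 to 2588 in GFP. That of 7 Paneth cell markers was 1403 to 1751 in clone 3 and 2578 to 2811 in clone 1, against 2847 to 3007 in GFP. Of the goblet cell markers 3 fell in clone 3 (limma-trend), and with passage as a block 7 goblet and 3 Paneth cell markers fell there and 2 goblet cell markers in clone 1. Enteroendocrine cells are secretory as well, and the sum of 6 of their markers was 229 to 405 in clone 3 and 180 to 241 in clone 1, against 179 to 259 in GFP. It was higher in clone 3 than in GFP at each passage. The sum of 6 stem cell markers was 1150 to 1911 in clone 3 and 1210 to 1920 in clone 1, against 1099 to 1443 in GFP, and both clones exceeded GFP at each passage. Most of the stem cell sum in every library was Olfm4, which is also listed among the other targets below. The sum of 5 tuft cell markers was 8.09 to 12.4 in clone 3 and 9.47 to 14.9 in clone 1, against 9.99 to 15.2 in GFP. No enteroendocrine, stem or tuft cell marker passed with PLAGL2 or in either clone, with or without the block. All markers of these lists but 1 of the tuft cells were detected in every library. Their part in the values of the Notch genes was not tested. Atoh1, the master regulator of the secretory fate that Hes1 is known to repress, had 5.91 and 4.91 RPKM in clone 3 at passages 7 and 5, 9.12 and 7.99 RPKM in clone 1, and 10.8 and 10.8 RPKM in GFP. Both clones lay below GFP at each passage, clone 3 lowest. The log2 change in clone 3 was -0.94 (SE 0.13) with a limma-trend adjusted p of 0.0785, and with passage as a block the adjusted p was 0.0297. Atoh1 was 1 of 6 tested genes of secretory fate, and these were mixed in direction. Against GFP, 3 of the 6 had a positive fitted change in clone 3 and 3 in clone 1. Neurog3, whose values are given below, was higher in clone 3 than in GFP at each passage.

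The transcripts of the genes were compared as well. The transcript table listed 30 transcripts of the 10 genes, of which 26 met the same filter, and none passed the threshold with PLAGL2, in clone 3 or in clone 1, in comparisons where 2 (0.00447%), 1 (0.00223%) and 0 of 44747 did. At an unadjusted limma p under 0.05 there were 4, 8 and 1 of the 26, against 5.55%, 6.93% and 4.76% of all transcripts. A coding transcript had the largest mean share of each gene's transcript signal where several were listed. Dll1-001 held 72.5% of the summed RPKM of Dll1 transcripts (63.5% to 80.5% over the 6 libraries), Dll4-001 held 69.7% (57.0% to 89.5%), Jag1-001 67.3% (61.0% to 77.8%), Hes1-001 56.1% (53.8% to 58.2%) and Notch1-001 53.2% (45.7% to 56.8%). Notch1-001 had 22.9 and 17.0 RPKM in clone 3 at passages 7 and 5, 15.2 and 13.9 RPKM in clone 1, and 12.2 and 11.7 RPKM in GFP, the same order of lines as the gene.

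The passages were compared next, with line as a term in the fit. Lfng and Notch2 rose at passage 7, and they were 2 of the 8 tested genes, against 12.1% of all genes (1975 of 16314). Of those 1975 genes, 1111 were higher (6.81%) and 864 lower (5.3%) at passage 7, a split that depended on scaling, at 771 and 888 after quantile normalization and 431 and 1133 after centring each library on its median. Lfng averaged 14.6 ± 1.57 RPKM at passage 7 and 10.4 ± 1.05 RPKM at passage 5 (SD, n = 3 each). The passage 7 value was 1.38 times that of passage 5 in clone 3, 1.47 times in clone 1 and 1.36 times in GFP, so the lines moved alike. The log2 change was 0.47 (SE 0.05, limma-trend adjusted p = 0.0186).

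Notch2 averaged 9.69 ± 0.860 RPKM at passage 7 and 7.38 ± 0.815 RPKM at passage 5 (SD, n = 3 each), with ratios of 1.31 in clone 3, 1.28 in clone 1 and 1.35 in GFP. All 3 passage 7 libraries exceeded all 3 of passage 5, as they did for Lfng. The log2 change was 0.37 (SE 0.05, limma-trend adjusted p = 0.0270). Both calls held after quantile normalization and after median centring, where the changes were 0.42 and 0.38 for Lfng and 0.31 and 0.29 for Notch2. Without the line term, where 8.61% of all genes passed, limma-trend gave Notch2 an adjusted p of 0.0797 and Lfng one of 0.0474. Leaving out any 1 library ended the call of Notch2, with limma-trend adjusted p-values of 0.0608 to 0.168. Leaving out a clone 1 or a GFP library ended that of Lfng, at 0.109 to 0.132, but in those fits 0 of all tested genes passed. Without a clone 3 library, where 4.56% to 4.73% of all genes passed, Lfng stayed at 0.0477 and 0.0491.

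The other 6 tested genes did not pass. Dll4 exceeded its passage 5 level 1.49 times in clone 3, 1.48 times in clone 1 and 1.17 times in GFP, a log2 change of 0.40 (SE 0.10, limma-trend adjusted p = 0.0732). For Jag2 the ratios were 1.49, 1.01 and 1.44 in clone 3, clone 1 and GFP, and for Notch1 they were 1.38, 1.09 and 1.14, with log2 changes of 0.34 (SE 0.12, limma-trend adjusted p = 0.144) and 0.25 (SE 0.08, limma-trend adjusted p = 0.118). Dll4, Jag2 and Notch1 together with Lfng and Notch2 were higher at passage 7 in all 3 lines, 5 of 8 genes, against 6355 of 16314 genes or 39% of all. No member was lower in all 3 lines, against 17.9% of all genes. Jag1 moved in different directions by line, with ratios of 1.14 in clone 3, 0.746 in clone 1 and 0.804 in GFP and a log2 change of -0.17 (SE 0.13, limma-trend adjusted p = 0.409). Hes1 and Dll1 had log2 changes of 0.11 (limma-trend adjusted p = 0.357) and 0.05 (limma-trend adjusted p = 0.563), and that of Dll1 was -0.03 after median centring. The median change of the 8 genes was 0.29, against 0.09 over all genes. In a limma-voom fit of the recovered reads Dll4 (limma-voom adjusted p = 0.0149) and Notch1 (adjusted p = 0.0221) passed as well, and so did 25.2% of all genes.

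**Figure D3:**
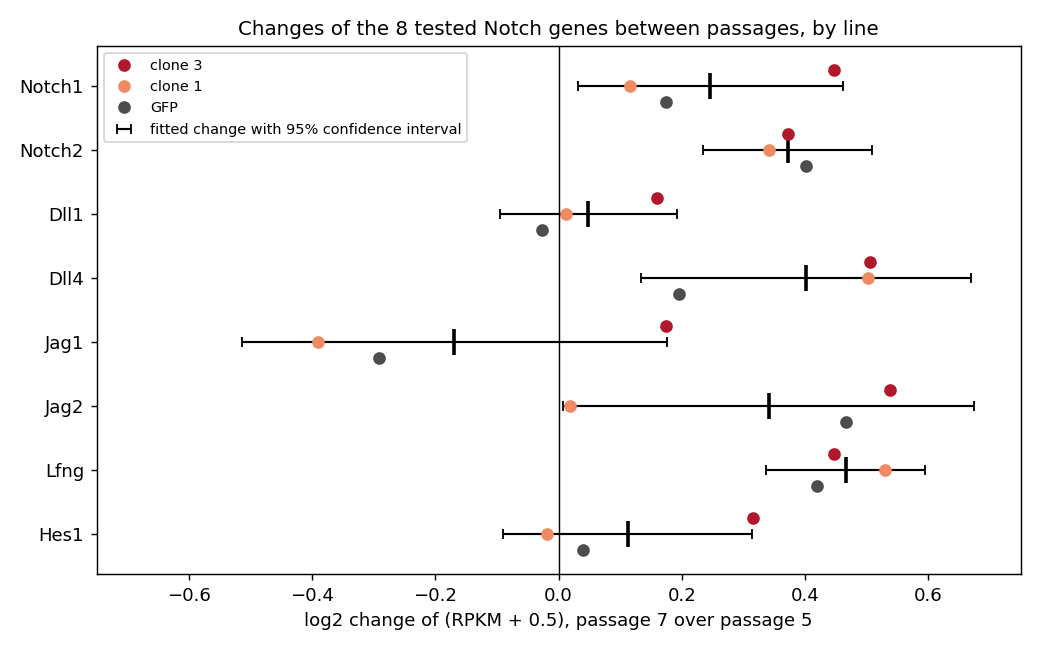
Log2 change of (RPKM + 0.5), passage 7 over passage 5 (horizontal axis), for the 8 tested genes, with a point for each line and the fitted change with its 95% confidence interval in black. Lfng (0.47) and Notch2 (0.37) have the 3 lines close together and the narrowest intervals, whereas the lines fall on both sides of 0 for Dll1, Jag1 and Hes1.

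Several markers moved between the passages in all 3 lines. The summed RPKM of 6 enterocyte markers was 2555 to 2982 at passage 7 and 5294 to 6982 at passage 5, and that of 6 stem cell markers was 1443 to 1920 at passage 7 and 1099 to 1210 at passage 5. All 6 enterocyte markers fell and all 6 stem cell markers rose (limma-trend). The sum was 241 to 405 at passage 7 and 179 to 229 at passage 5 for the enteroendocrine markers, of which 3 of 6 rose, and 12.4 to 15.2 at passage 7 and 8.09 to 9.99 at passage 5 for the tuft cell markers, of which 2 of 4 tested rose. Without the line term 5 enterocyte markers fell, and 4 stem cell markers, 1 tuft cell marker and no enteroendocrine marker rose. Mitochondrially encoded genes took up 12.2% to 13.0% of all RPKM at passage 7 and 10.7% to 11.2% at passage 5. Their part in the changes of Lfng and Notch2 was not tested. In a fit of the difference between the passage change with PLAGL2 and that with GFP, which was added after the data had been seen, none of 16314 genes passed (limma-trend, 546 at an unadjusted p under 0.05). The largest difference among the 8 genes was that of Dll4, 0.31 (SE 0.19, limma-trend adjusted p = 1.00).

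The rest of the pathway was read from a list of 64 further genes, all in the table and 49 of them tested. With PLAGL2 against GFP none of the 49 passed with limma-trend or limma-voom, nor in clone 3 or clone 1 against GFP, apart from Atoh1 in clone 3 with passage as a block. At an unadjusted limma p under 0.05 there were 3 with PLAGL2, 4 in clone 3 and 0 in clone 1, against the 5.95%, 9.04% and 3.95% of all genes given above, and the median log2 change with PLAGL2 was 0.05. At passage 7, 9 rose and 1 fell, or 10 of 49 against the 12.1% of all genes given above, and the median change was 0.10. Without the line term 6 were higher and 1 lower. The genes that rose belonged to 4 roles.

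Of the other targets, Olfm4, a crypt stem cell marker, had 1407 and 845 RPKM in clone 3 at passages 7 and 5, 1481 and 906 RPKM in clone 1, and 1057 and 807 RPKM in GFP, a log2 change between passages of 0.61 (SE 0.09, limma-trend adjusted p = 0.0291). Myc, a driver of growth, rose by 0.66 (SE 0.07, limma-trend adjusted p = 0.0186), and Sox9, a transcription factor of crypt base cells, by 0.38 (SE 0.06, limma-trend adjusted p = 0.0345). They were 3 of 6 tested targets, and Hes6, the third most abundant, changed by 0.08 (limma-trend adjusted p = 0.388). Among the 6 genes of secretory fate, Neurog3 and Insm1, which drive the enteroendocrine line, rose by 0.57 and 0.69 and Foxa2 by 0.52 (limma-trend adjusted p = 0.0400, 0.0300 and 0.0399). Neurog3 had 18.1 and 9.90 RPKM in clone 3 at passages 7 and 5, 9.80 and 7.20 RPKM in clone 1, and 9.10 and 6.49 RPKM in GFP, so that clone 3 at passage 7 stood well above the rest. Spdef, a goblet and Paneth cell factor, changed by 0.26 (limma-trend adjusted p = 0.0782) and Atoh1 by 0.14 (limma-trend adjusted p = 0.233).

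Among 8 corepressors, the histone demethylase Kdm5a rose by 0.27 and the deacetylase Hdac2 by 0.21 (limma-trend adjusted p = 0.0454 and 0.0414), while the more abundant Ctbp1 and Ncor1 changed by 0.12 and 0.10 and did not pass. Among the glycosylation enzymes 1 of 4 rose, Poglut1, which adds glucose to the receptor, by 0.43 (SE 0.07, limma-trend adjusted p = 0.0330). Pofut1, which adds the fucose that Lfng extends, changed by 0.12 and Rfng by 0.08, and neither passed. None of 7 tested cleavage genes passed. Ncstn and Adam10, parts of the proteases that cut the receptor, changed by -0.09 and -0.11 (limma-trend adjusted p = 0.145 and 0.158).

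Of 9 tested genes of endocytosis and trafficking, Neurl1b, a ubiquitin ligase of Notch ligands, fell by 0.82 at passage 7 (SE 0.09, limma-trend adjusted p = 0.0209). It had 14.8 and 22.8 RPKM in clone 3 at passages 7 and 5, 10.7 and 22.7 RPKM in clone 1, and 9.93 and 17.5 RPKM in GFP, without overlap between the passages. Mib1, the ubiquitin ligase that lets ligands be taken up, changed by 0.12, Dtx4 by 0.17 and the Notch inhibitor Numb by -0.12, and none of these passed. In the nuclear complex none of 7 tested genes passed, and Ep300, Snw1 and Kat2a changed by -0.03, 0.10 and 0.23 (limma-trend adjusted p = 0.676, 0.176 and 0.114). Of the remaining receptors and ligands, Notch4 and Dll3 were tested and did not pass, and Notch4 stood at 0.938 to 1.56 RPKM in PLAGL2 libraries and at 0.936 and 0.956 RPKM in GFP libraries. Dner stood at 0.121 to 0.389 RPKM in PLAGL2 libraries and at 0.239 to 0.258 RPKM in GFP libraries and was not tested.

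**Figure D4:**
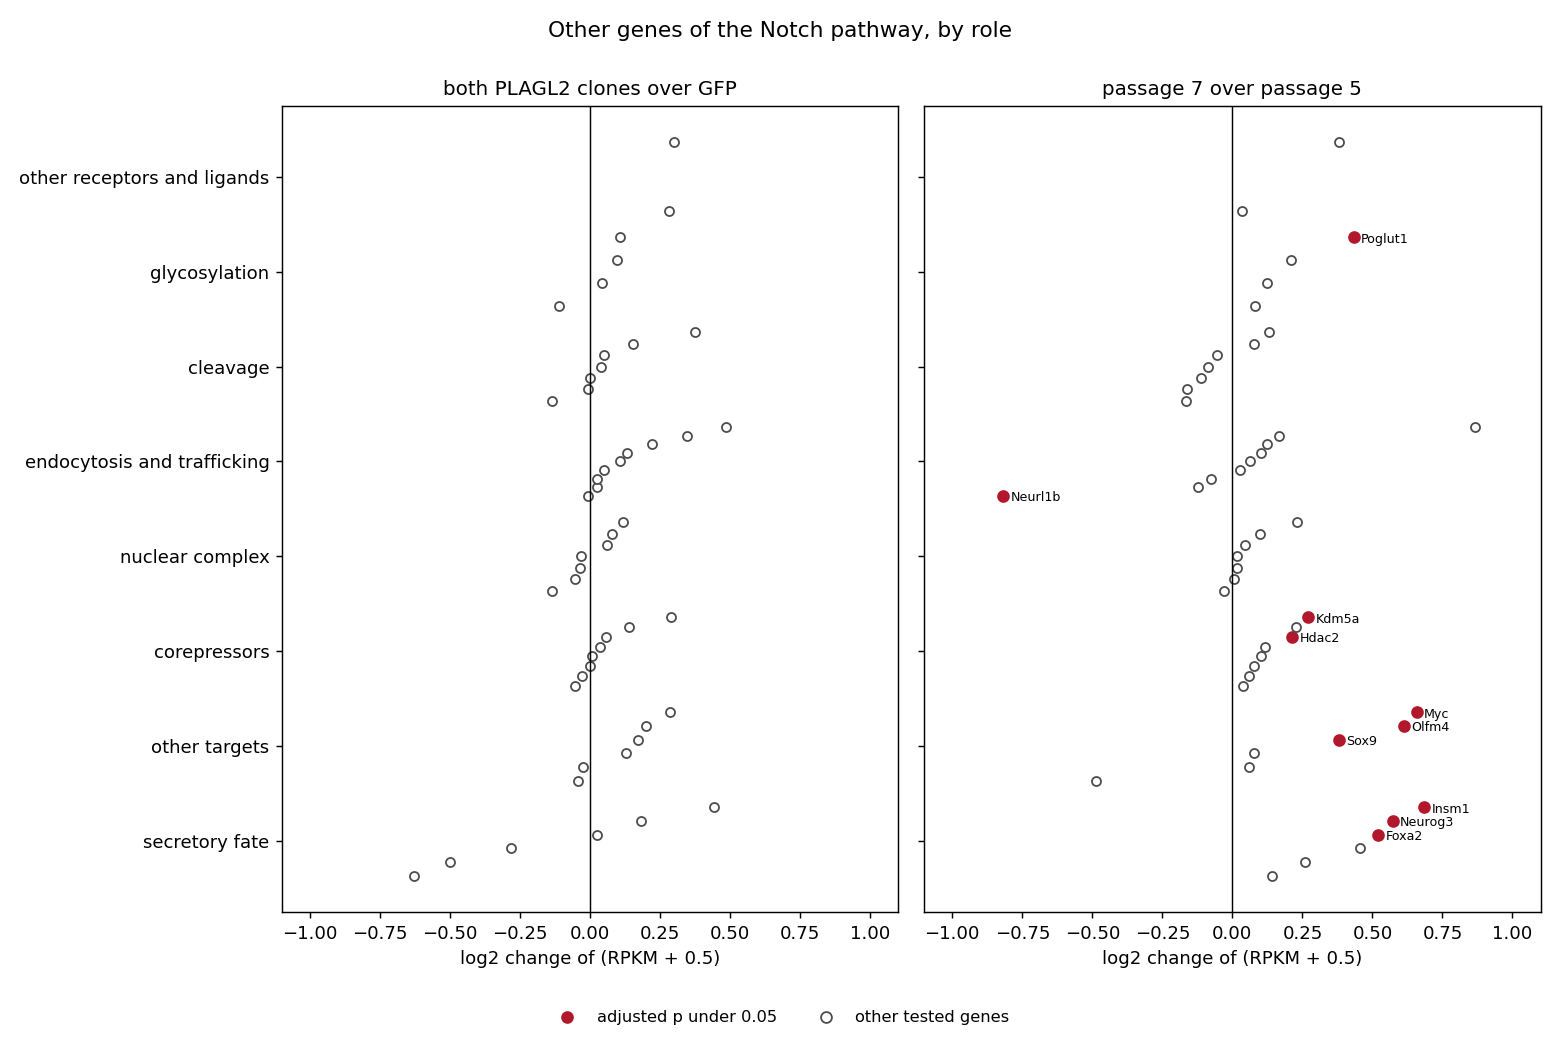
Log2 change of (RPKM + 0.5) (horizontal axis) of the 49 tested further genes of the pathway, by role (vertical axis), for both PLAGL2 clones over GFP on the left and for passage 7 over passage 5 on the right, with filled red points for an adjusted p under 0.05. No point is red on the left, and on the right 9 red points lie above 0 and 1, Neurl1b at -0.82, lies below.

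The genes most like a receptor, a ligand and a target of the set were found by the root mean square difference of mean-centred log2(RPKM + 0.5) over the 6 libraries, as a description. Snn, Myh7b and Pear1 were nearest to Notch1, with differences of 0.0403 to 0.0506 against a median of 0.355 over all tested genes. Wdr70, Fam193a and Lcor were nearest to Dll1, with 0.0246 to 0.0262 against a median of 0.189, and Ube2b, 4930404I05Rik and E2f5 were nearest to Hes1, with 0.0264 to 0.0293 against a median of 0.213. Some of these genes were low, with Pear1 at 0.133 to 0.949 RPKM, Myh7b at 0.527 to 1.62 RPKM and 4930404I05Rik at 0.548 to 0.918 RPKM. At such levels the added 0.5 narrows the differences between libraries, so likeness on this scale is not likeness in fold change. All profiles share the same 6 libraries.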

How the data were processed

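The authors deposited RPKM values per gene and per transcript for 6 libraries. Per the submitters' processing notes the genome was mm10, and STAR, featureCounts of Subread and edgeR are listed without versions or roles. Settings for strand and gene length are not given in the sources used. Coordinates and exons are those of GENCODE M21 (GRCm38, the assembly of mm10).

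RPKM was analysed as log2(RPKM + 0.5) with limma 3.58.1 (limma-trend, two-sided) in R 4.3.3, over 16314 genes and 44747 transcripts that reached 0.5 RPKM in 2 or more of the 6 libraries, with Benjamini-Hochberg adjustment over all of them at 0.05. Changes on this scale understate those of low genes. PLAGL2 against GFP had 4 residual degrees of freedom, single clones 3 and passage, with line as a term, 2. The fits were also run on simulated data with independent noise in each library. Beyond the changes put in on purpose, these held no gap between clones and no shared passage shift. They therefore do not show how the fits behave under such differences. The 10 genes and the gene lists were chosen with earlier results of these data known, and all 10 were named, with, for each role of the wider list, the genes past the threshold and up to 3 of the most abundant. The other genes of the wider list enter its counts only, and some genes of the pathway are not reported here.

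Whole reads were recovered from the steps of the RPKM values within 0.02 of a read for 67.7% of 25468 genes with the annotated length and for 32.3% with a fitted length, among them Notch2, Notch3, Jag2, Lfng and Hey1, for which the smallest length that gave whole reads was taken, and summed to 99.73% to 99.74% of each recovered total. The limma-voom fit of these reads called 8 genes for PLAGL2 against GFP. The limit of 3 reads covers counting error only. The confidence intervals come from the limma-trend fits and rest on the spread between libraries, as the p-values do. They do not reflect variation among independent transfections either. The letters A and B in the labels mark passages 5 and 7 in each line, and deviations from the line means correlated at 0.32, 0.28 and 0.28 between pairs of lines over genes, so a fit with passage as replicate block was made. Other alternatives were no filter, pseudocounts of 0.1 and 1, quantile normalization, median centring and leaving out each library.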

Additional observations from a re-analysis of the deposited data

Results flagged for a closer look

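Jag2 in clone 3 at passage 7, at 8.79 RPKM, was set apart from the other 3 PLAGL2 libraries, which stood at 5.77 to 5.89 RPKM. Its gap to the nearest of them exceeded Dixon's 95% limit for 4 samples, which chance passes in about 1 of 20 groups of like samples. These libraries come from clones labelled high and low in PLAGL2 and from different passages, so that rate does not apply to them. The gap was 1 of 20 such gaps examined, the highest and the lowest library of each of the 10 genes. Without that library the log2 change of Jag2 with PLAGL2 against GFP was 0.56, against 0.69 with all libraries, and neither passed the threshold after adjustment in limma-trend. That library had the highest value of all 6 for 7 of the 10 genes, Notch1, Notch3, Dll1, Jag1, Jag2, Lfng and Hes1. The share of all tested genes that were highest there was not counted, and Notch3 was not a tested gene. The 7 of 10 is therefore not shown to be particular to the Notch genes. Without that library the changes of Hes1 and Notch1 with PLAGL2 were 0.084 and 0.34.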

How the results depend on the processing

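With PLAGL2, in either clone and between clones, none of the 10 genes passed in any alternative run. Passage as replicate block changed no call of a member, and it gave 2 genes for PLAGL2 against GFP (main value 1), 12 for clone 1 (5), 342 for clone 3 (57) and 47 for clone 3 against clone 1 (4). In the same order the limma-voom fit gave 8, 10, 139 and 24. Without a filter there were 17, 22 and 23 for PLAGL2, clone 1 and clone 3 against clone 1, and 629 for passage (1975), where limma-voom gave 4110. A pseudocount of 0.1 gave 0 for PLAGL2 and 3 for clone 1, and clone 3 against clone 1 had 15 after quantile normalization and 9 after median centring. Leaving out 1 library gave 0 to 3 genes for PLAGL2, 0 for clone 1, 2 to 11 for clone 3, 0 to 2 for clone 3 against clone 1 and 0 to 762 for passage. It leaves 1 line with a lone library, assumed to vary like the others, and for passage that line adds nothing. Of the members, 2 passed for passage, 1 without a filter (Notch2 adjusted p = 0.0501), 1 with no replicate block, 4 with limma-voom and 0 to 1 with a library left out.

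Directions turned for small changes. Dll1 between passages was -0.033 after median centring and -0.0076 to 0.086 with a library left out. With a library left out, Dll4 ranged over -0.053 to 0.17 for PLAGL2, -0.12 to 0.39 for clone 1, -0.27 to 0.23 for clone 3 and -0.41 to 0.10 for clone 3 against clone 1, Jag1 over -0.045 to 0.25 for PLAGL2 and -0.27 to 0.12 for clone 1, Lfng over -0.11 to 0.42 for clone 1 and -0.13 to 0.40 for clone 3 against clone 1, and Notch2 over -0.25 to 0.12 for clone 3 against clone 1. The fits with PLAGL2, for single clones and between clones had no passage term, so leaving out a library also unbalanced the passages between the groups. The cause of these changes was not tested. Depth limits Hey1 and Notch3.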
